A study of Mus musculus with 2 samples.

Results

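The metallothionein genes Mt1, Mt2 and Mt3 were followed across the cells of the mouse dentate gyrus, the hippocampal region that goes on making granule neurons after birth. The 3 genes were matched by symbol to the gene annotation of the deposited matrix, which lists 32285 genes, and none was used to form or to name the cell classes. Droplet single-cell libraries, in which each captured transcript is tagged near its 3' end with a unique molecular identifier (UMI), were made at postnatal day 30 from 4 mice per genotype. The genotypes were a conditional knockout of the histone demethylase gene Phf2 (Nestin-Cre Tg, Phf2flox/flox) and its control (Nestin-Cre Tg, Phf2+/+). Both carried the transgene of the B6.Cg-Tg(Nes-cre)1Kln/J line, in which Nestin sequences drive Cre in neural progenitors and the cells derived from them. The labels do not say whether the mice of a genotype were pooled.

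The counts of both samples came in 1 matrix whose barcodes end in 1 or 2, and no label ties an ending to a genotype. The endings are called library 1 and library 2, and no comparison between genotypes was made. The libraries held 102897659 and 107266420 UMIs, of which 8029 and 8129 cells with median depths of 8092 and 7232 UMIs were kept, and 22 cell barcodes occurred in both. Clusters were named from marker lists, which gave 17 classes with at least 20 cells in each library. The classes include Astrocyte-like, radial glia-like (RGL-like), neuronal intermediate progenitor-like (nIPC-like) and committed oligodendrocyte precursor-like (COP-like) cells. All 10 astrocyte markers were detected in Astrocyte-like cells, summing to 22690 and 23170 counts per 1000000 UMIs (CPM), and the COP-like cluster also had the precursor markers Pdgfra, Lhfpl3 and C1ql1 among its leading genes. Choroid plexus-like cells numbered 29 in library 1 and 339 in library 2, so their levels in library 1 rest on few cells.

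Metallothioneins are small cysteine-rich proteins that bind zinc and copper and can scavenge reactive oxygen species. Mt1 and Mt2 are made in many tissues, and their transcription is raised by zinc through the metal-responsive factor MTF1, which binds metal response elements, and by glucocorticoids and oxidative stress. Mt3, first described as growth inhibitory factor, is made mainly in brain and is much less responsive to metals. In brain, astrocytes are the best known source of Mt1 and Mt2, while Mt3 is also found in zinc-rich glutamatergic neurons.

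The 3 genes lie on the forward strand of mouse chromosome 8, next to each other and to Mt4, a squamous epithelial metallothionein. In the GENCODE M21 annotation of the mm10 genome, Mt3 (ENSMUSG00000031760) spans chr8:94152607-94154146, Mt2 (ENSMUSG00000031762) spans chr8:94172664-94173568 and Mt1 (ENSMUSG00000031765) spans chr8:94179082-94180327. Mt1 and Mt2 are close paralogs, and the sources used here do not give how reads that fit both were assigned. The 250 bases before each RefSeq start (GRCm38.p6) are shown because metal response elements are known to act in the Mt1 and Mt2 promoters. Capitals mark matches to the core of that element, TGCACNC or TGCGCNC on either strand. The windows are chr8:94178839-94179088 for Mt1, chr8:94172368-94172617 for Mt2 and chr8:94152357-94152606 for Mt3.
Mt1: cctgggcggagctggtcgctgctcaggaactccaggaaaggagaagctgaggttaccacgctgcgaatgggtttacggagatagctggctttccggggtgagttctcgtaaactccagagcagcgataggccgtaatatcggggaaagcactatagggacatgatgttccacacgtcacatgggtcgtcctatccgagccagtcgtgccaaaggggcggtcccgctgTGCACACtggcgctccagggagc
Mt2: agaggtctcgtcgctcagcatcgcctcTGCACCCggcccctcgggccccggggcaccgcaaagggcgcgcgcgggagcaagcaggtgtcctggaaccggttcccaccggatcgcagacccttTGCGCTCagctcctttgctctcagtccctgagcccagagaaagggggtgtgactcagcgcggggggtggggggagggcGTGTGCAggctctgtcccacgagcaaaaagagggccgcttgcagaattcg
Mt3: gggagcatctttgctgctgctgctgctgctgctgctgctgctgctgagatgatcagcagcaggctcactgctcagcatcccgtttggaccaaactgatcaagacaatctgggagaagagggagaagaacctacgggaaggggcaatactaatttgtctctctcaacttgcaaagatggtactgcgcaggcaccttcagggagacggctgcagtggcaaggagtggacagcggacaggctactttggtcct

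The Mt1 window held 1 match, the Mt2 window 3 and the Mt3 window 0. Of 32851 promoter windows of the same length, 21.4% held at least 1 match and 1.26% at least 3. The antioxidant response element TGACNNNGC occurred once, as TGACTCAGC from -79 to -71 before the Mt2 start, against 10.2% of all windows. A match describes the letters of these windows alone. The RefSeq and GENCODE starts differ: the Mt1 window ends at 94179088, past the GENCODE start of 94179082. The Mt2 window ends at 94172617, short of the GENCODE start of 94172664. Elements outside the windows were not counted, so these are not totals for the promoters.

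Astrocyte-like cells had the highest level of all 3 genes among the 17 classes, and RGL-like cells came second, in both libraries. Mt1 stood at 13480 CPM in Astrocyte-like cells of library 1 and at 13750 CPM in those of library 2. Mt2 stood there at 2690 and 2940 CPM, and Mt3 at 7095 and 6933 CPM. The order Mt1, Mt3, Mt2 was the same in both libraries.

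RGL-like cells, which hold the stem cells of the region and share many transcripts with astrocytes, had 5893 and 7351 CPM of Mt1, 1226 and 1731 CPM of Mt2, and 4616 and 4990 CPM of Mt3. Astrocyte-like cells made up 11.5% and 11.4% of the cells and held 55.9% and 50.2% of the Mt1 UMIs in cells, 63.5% and 53.8% of those of Mt2, and 58.7% and 43.4% of those of Mt3. RGL-like cells, at 6.94% and 9.73% of the cells, held 17.9% and 25.6% of the Mt1 UMIs. In library 2 Choroid plexus-like cells held a further 14.8% of the Mt3 UMIs. Mt4 had no UMI in any class, which in the 921 and 925 Astrocyte-like cells leaves room for up to 0.725 and 0.708 CPM (upper exact Poisson 95% bound, counting error only).

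Counted cell by cell after thinning every cell to 1000 UMIs, nearly every Astrocyte-like cell was positive. In libraries 1 and 2, 99.9% and 99.8% of these cells had a Mt1 UMI, 88.4% and 90.0% a Mt2 UMI, and 99.0% and 98.6% a Mt3 UMI. The corresponding shares of RGL-like cells were 98.0% and 98.4% for Mt1, 69.5% and 76.0% for Mt2, and 98.0% and 97.9% for Mt3. Without thinning, 98.6% and 99.5% of Astrocyte-like cells had a Mt2 UMI at median depths of 4702 and 5064 UMIs. Endothelial-like cells, in which Mt3 did not exceed the free-RNA limit described next, had a Mt3 UMI in 2.80% and 5.62% of thinned cells, from median depths of 8236 and 7255 UMIs. Mt1 varied widely among Astrocyte-like cells: the median was 13 thinned UMIs in both libraries, 10% of cells had 5 or fewer, and the highest cell had 75 in library 1 and 63 in library 2.

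Free RNA, the transcripts in barcodes with fewer than 100 UMIs, was itself rich in metallothioneins, at 2241 and 1921 CPM for Mt1, 375 and 321 CPM for Mt2, and 1306 and 1217 CPM for Mt3. A limit on its part in each class outside the Astrocyte-like and RGL-like ones was set from the astrocyte markers. For each marker the upper 95% Poisson bound of its level in the class was divided by its level in free RNA, and the lowest quotient over the markers was taken. The lowest of several such bounds is not itself a 95% bound, and in some classes it rests on few UMIs of 1 marker. By this limit free RNA could give all of the Mt3 in Endothelial-like, Pericyte-like, Smooth muscle-like, Fibroblast-like and Border macrophage-like cells of both libraries, and 95.2% and 101% of it in Microglia-like and 84.5% and 119% in Oligodendrocyte-like cells. The Mt3 levels of the first 5 of these classes, at most 82.2 CPM, are read as background. In Microglia-like cells, at 49.1 and 67.6 CPM, the limit lay within the counting interval of the level in both libraries. In Oligodendrocyte-like cells the limit of 22.8 CPM in library 1 lay just under the level of 26.9 CPM (23.2 to 31.0, exact Poisson 95% interval), while in library 2 it was above the level of 38.5 CPM. Mt1 stood clear of the limit in Oligodendrocyte-like cells, where free RNA could give at most 8.08% and 9.05% of it, and in Microglia-like cells, at most 12.7% and 15.4%.

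**Figure D1:**
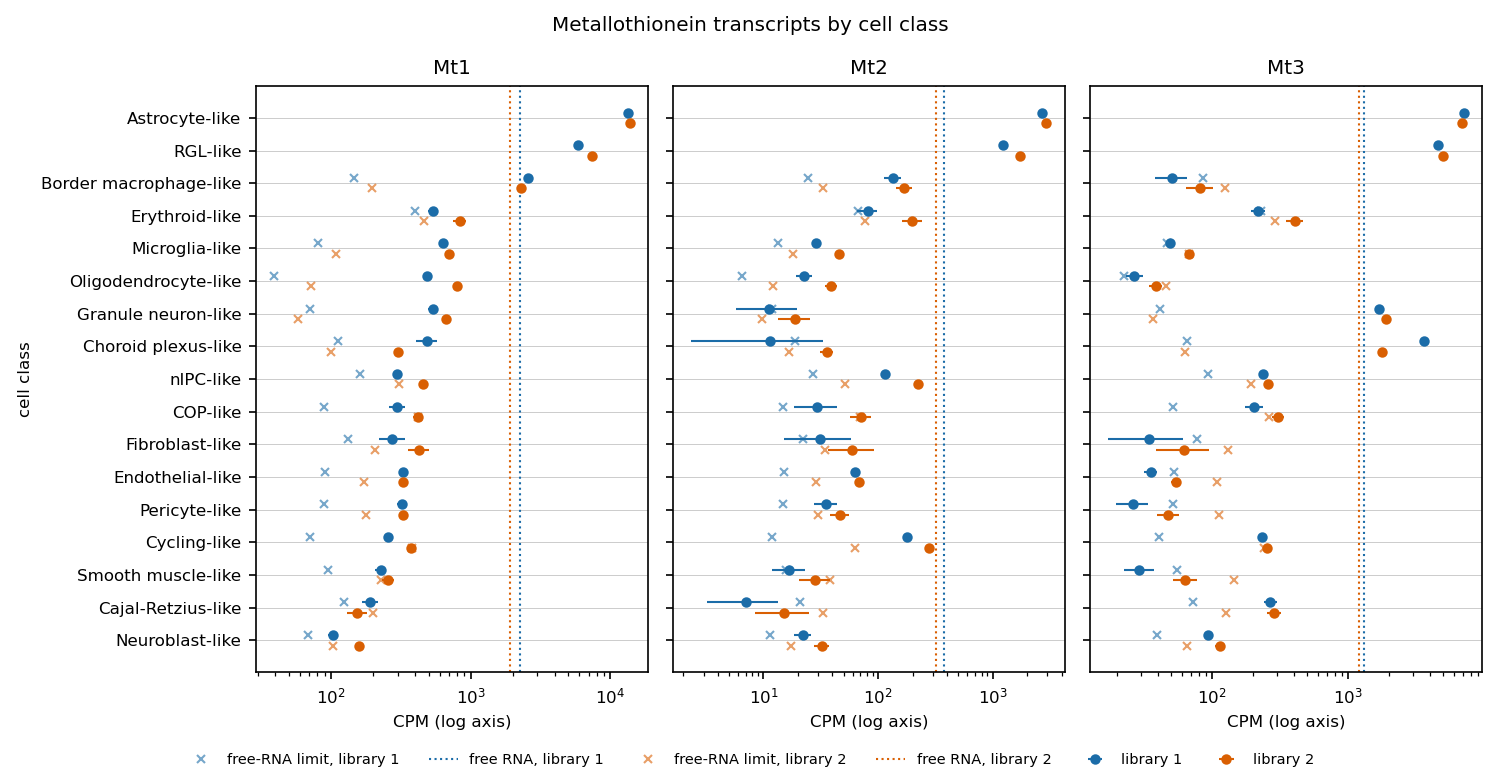
Levels of Mt1, Mt2 and Mt3 (CPM, log axis) in the 17 classes, ordered by their mean Mt1 level; points are libraries with exact Poisson 95% intervals, crosses the free-RNA limit and dotted lines the level in free RNA. Astrocyte-like cells are rightmost in every panel, with 13480 and 13750 CPM of Mt1, and Mt3 of Choroid plexus-like and Granule neuron-like cells lies right of the free-RNA line.

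Outside the astroglial classes the genes parted. Mt1 was next highest in Border macrophage-like cells, the macrophages of the meninges and vessels, at 2564 and 2295 CPM, of which free RNA could give at most 5.73% and 8.63%. These cells were Mt1-positive in 66.2% and 71.1% after thinning. Microglia-like cells had 634 and 704 CPM of Mt1, and their 6 clusters ran from 396 and 413 CPM in the cluster led by P2ry12 to 1377 and 1208 CPM in the cluster led by the chemokine genes Ccl4 and Ccl3 and by Lpl. Oligodendrocyte-like cells had 484 and 798 CPM and Granule neuron-like cells 541 and 670 CPM of Mt1. The lowest Mt1 levels were in Neuroblast-like cells, with 103 and 159 CPM, and in Cajal-Retzius-like cells, with 190 and 154 CPM. Free RNA could give at most 66.28% and 65.11% of the Mt1 in Neuroblast-like cells. In Cajal-Retzius-like cells it could give 65.12% in library 1 and all of it in library 2 (129.6%). Keeping doublets meant that all cells were clustered and named anew. Mt1 was then 207 and 321 CPM in Neuroblast-like and 143 and 439 CPM in Cajal-Retzius-like cells.

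Mt3 had a different order. After the astroglial classes came Choroid plexus-like cells, the epithelium that makes cerebrospinal fluid, with 3613 and 1791 CPM, and Granule neuron-like cells, with 1682 and 1916 CPM. Free RNA could give at most 1.81% and 3.53% of the Mt3 in Choroid plexus-like cells and 2.47% and 1.92% of that in Granule neuron-like cells. The wide gap between libraries in Choroid plexus-like cells went with their clusters, since the cluster found in both libraries had 3810 and 3088 CPM, while a deep cluster of 109 cells in library 2, with 1 cell in library 1, had 1352 CPM. All Choroid plexus-like cells of library 1 and 86.4% of those of library 2 had a Mt3 UMI after thinning, as had 77.6% and 83.0% of Granule neuron-like cells. Neuroblast-like cells, the step before granule neurons, had 94.3 and 114 CPM of Mt3, far below Granule neuron-like cells. Pyramidal neuron markers scored second in the Granule neuron-like cluster, at 2.011 against 3.009 (mean log2 ratio to all other cells). Its leading genes included Calb1 of the granule list and Nrgn of the pyramidal list. Whether it also holds pyramidal neurons was not tested. Slc30a3, the transporter that loads zinc into synaptic vesicles, stood at 120 and 134 CPM in Granule neuron-like cells, and at 0 and 0.384 CPM in Astrocyte-like cells.

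Per Mt1 UMI there were 7.43 and 5.94 Mt3 UMIs in Choroid plexus-like cells, 3.11 and 2.86 in Granule neuron-like cells and 0.527 and 0.504 in Astrocyte-like cells. Free RNA had 0.583 and 0.633. These are ratios of UMI counts, and each 3' transcript end counts once whatever its length.

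Mt2 made up an unequal part of the Mt1 and Mt2 transcripts. In Cycling-like cells, which carry the transcripts of cell division, 41.0% (exact Clopper-Pearson 95% interval 38.5% to 43.6%) and 42.7% (40.6% to 44.9%) of the Mt1 and Mt2 UMIs were Mt2. Astrocyte-like cells had 16.6% (16.4% to 16.9%) and 17.6% (17.4% to 17.9%), and free RNA had 14.3% in both libraries. The intervals, which cover counting error only, kept Cycling-like cells apart from both.

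The nIPC-like class had 28.0% and 33.0%, and within it the cluster led by the replication genes Hells, Uhrf1 and Mcm6 had 2.40 and 1.77 Mt1 UMIs per Mt2 UMI, while the cluster led by Tac2 and Eomes had 3.23 and 3.17. Of the Mt2 level in Cycling-like cells, 179 and 278 CPM, free RNA could give at most 6.57% and 22.8%. Mt1 in the same cells, 258 and 372 CPM, was within the limit in library 2 (102%) and not in library 1 (27.3%). The limit of Cycling-like cells rests on 1 UMI of Gjb6 in library 1 and on 209 UMIs of Aldoc in library 2. The libraries are therefore not compared by it. If free RNA were the source of all astrocyte marker UMIs in these cells, it would give 51.5% and 43.1% of their Mt2. For Mt1 it would give 214% and 193%, more than the level in both libraries. At the other end, Mt2 was 4.35% and 6.04% of the Mt1 and Mt2 UMIs in Microglia-like cells, 4.49% and 4.64% in Oligodendrocyte-like cells, and 2.03% and 2.73% in Granule neuron-like cells. In these 3 classes Mt2 was 11.2 to 45.3 CPM, and none of their intervals reached the share of free RNA. Free RNA could give at most 46.48% and 39.88% of the Mt2 in Microglia-like cells and 28.74% and 31.1% in Oligodendrocyte-like cells. In Granule neuron-like cells, with 12 and 40 Mt2 UMIs, the limit was 106% and 51.56%, so the level in library 1 was within it.

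**Figure D2:**
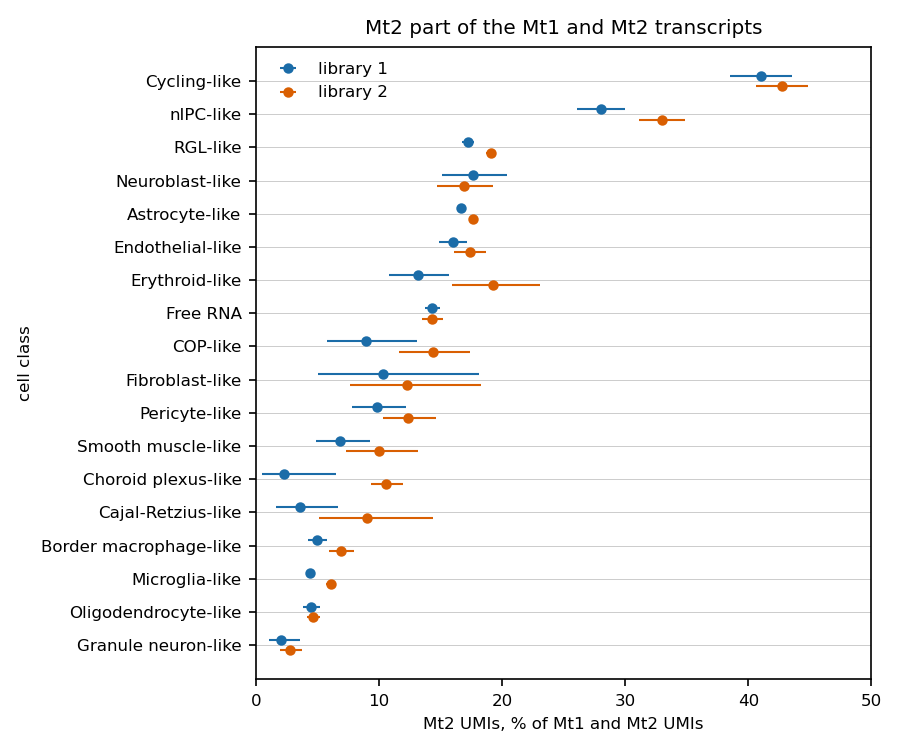
Mt2 UMIs as a percentage of the Mt1 and Mt2 UMIs in each class and in free RNA; points are libraries and bars exact Clopper-Pearson 95% intervals. Cycling-like cells lead with 41.0% and 42.7%, and Granule neuron-like cells are last with 2.03% and 2.73%.

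Differences between classes were tested with edgeR's quasi-likelihood test on counts summed per library and class, in 1 fit of 34 sums and 15762 genes blocked by library. All genes of the fit entered the Benjamini-Hochberg adjustment, and an adjusted p under 0.05 was called. The libraries also differ in genotype, and p-values rest on how far class differences varied between these 2 libraries and not between mice. Between classes so unlike each other many genes differ, so the percentage of all genes called is given with each comparison.

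All 3 genes were lower in RGL-like than in Astrocyte-like cells, a comparison in which 32.6% of all genes were called and 18.3% were lower. The log2 fold change was -1.42 ± 0.21 (SE) for Mt1 (edgeR adjusted p = 1.07e-06), -1.33 ± 0.20 for Mt2 (adjusted p = 1.44e-06) and -0.92 ± 0.22 for Mt3 (adjusted p = 0.000924). The direction was the same in each library, with -1.56 and -1.27 for Mt1, -1.50 and -1.13 for Mt2, and -0.98 and -0.84 for Mt3. The Mt3 call was lost with total-count scaling (-0.55, adjusted p = 0.077), under which the median of all genes was 0.30 against -0.02, and with doublets kept (-0.60, adjusted p = 0.0522). Subtracting free RNA from the other classes left the fold changes near their values and ended the calls of Mt1 (-1.40 ± 1.40, adjusted p = 0.589), Mt2 (-1.37 ± 1.00, adjusted p = 0.428) and Mt3 (-0.91 ± 0.39, adjusted p = 0.143). The counts of RGL-like and Astrocyte-like cells were left as they were, so this subtraction is no check of free RNA in these 2 classes.

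All 3 genes were lower in nIPC-like and Neuroblast-like cells than in RGL-like cells. Granule neuron-like cells, not part of this comparison, had more Mt1 and Mt3 than Neuroblast-like cells, but not more Mt2. The average of nIPC-like and Neuroblast-like cells lay below RGL-like cells by a log2 fold change of -4.96 ± 0.18 for Mt1, -4.52 ± 0.17 for Mt2 and -4.95 ± 0.19 for Mt3 (edgeR adjusted p = 6.5e-22, 3.02e-21 and 3.19e-21, with 57.5% of all genes called and 27.7% lower). In nIPC-like cells Mt1 was 298 and 454 CPM and Mt3 237 and 260 CPM, of which free RNA could give at most 53.9% and 67.5% for Mt1 and 39.5% and 74.8% for Mt3. In Neuroblast-like cells it could give at most 66.28% and 65.11% of Mt1 and 42.17% and 57.35% of Mt3.

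Against other glia and vessels, Astrocyte-like cells were higher in every test. Over Oligodendrocyte-like cells the log2 fold changes were 4.41 ± 0.23 for Mt1, 6.55 ± 0.25 for Mt2 and 7.74 ± 0.29 for Mt3 (59% of all genes called, 32.2% higher). Over Microglia-like cells they were 4.36 ± 0.23, 6.30 ± 0.24 and 6.94 ± 0.28 (70.2% called, 36.2% higher), and over Endothelial-like cells 5.64 ± 0.25, 5.69 ± 0.24 and 7.59 ± 0.29 (65.5% called, 35.9% higher). The edgeR adjusted p was 7e-18 or lower in each of these 9 tests. Free RNA could give at least 84.5% of the Mt3 in each of these lower classes, so no size for the cells themselves is read from its fold changes.

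Pericyte-like cells line small vessels around the Endothelial-like cells. Mt1 was 322 and 328 CPM in Pericyte-like cells, against 328 and 326 CPM in Endothelial-like cells, a log2 fold change of -0.19 ± 0.21 (edgeR adjusted p = 0.602, 22% of all genes called, 11.5% lower). The 2 Pericyte-like clusters stood apart, with 624 and 621 CPM of Mt1 in the shallower one and 195 and 254 CPM in the deeper one. Their median depths were 4244 and 20146 UMIs, and most of the summed Pericyte-like UMIs came from the deeper one. Endothelial markers scored second in the deeper cluster, at 2.449 against 4.018 for pericyte markers. Fibroblast markers did in the shallower one, at 2.309 against 5.697. Free RNA could give at most 27.61% and 54.45% of the Mt1 in Pericyte-like cells, and 27.57% and 52.86% in Endothelial-like cells. Mt2 was lower in Pericyte-like cells, at 35.2 and 46.3 CPM against 62.3 and 68.5 CPM in Endothelial-like cells (-0.90 ± 0.23, adjusted p = 0.00357), a call lost without the library block (-0.84, adjusted p = 0.148) and after subtraction of free RNA. Mt3 was at background in both, with -0.44 ± 0.25 (adjusted p = 0.247).

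**Figure D3:**
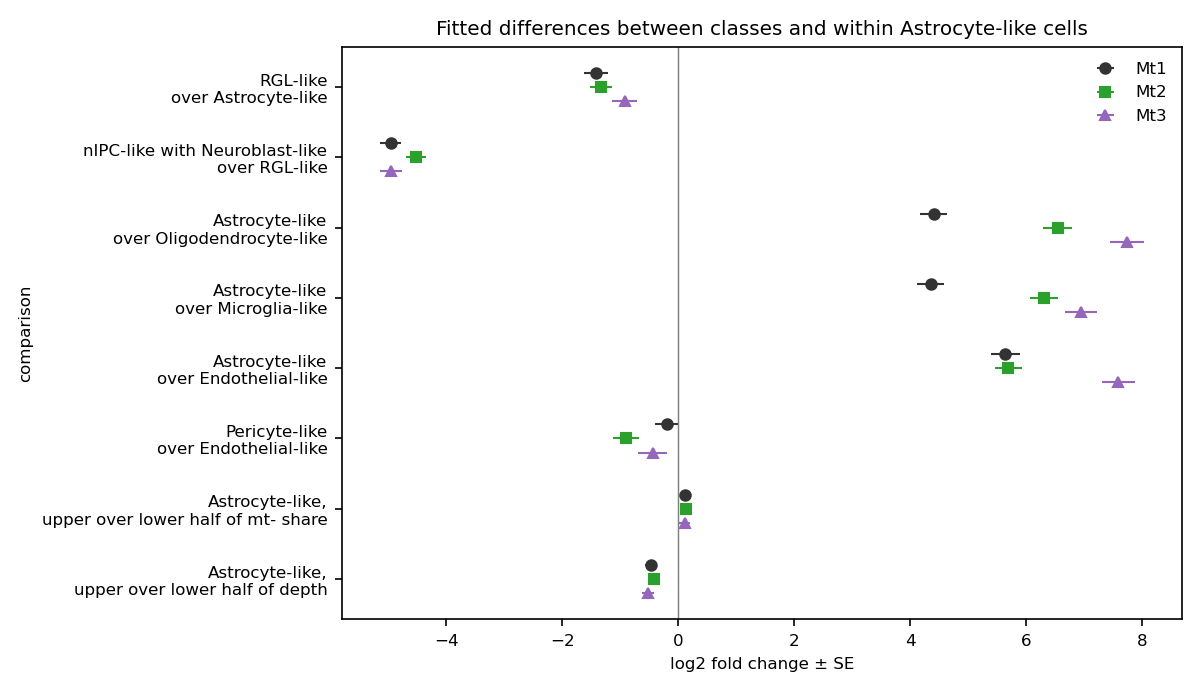
Fitted log2 fold changes of Mt1, Mt2 and Mt3 with SE bars for the comparisons between classes and within Astrocyte-like cells, the first-named side over the second. Astrocyte-like cells lie between 4.36 and 7.74 above Oligodendrocyte-like, Microglia-like and Endothelial-like cells, and the differences within Astrocyte-like cells are below 1.

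A list of 29 zinc and copper handling genes was set beside them. In RGL-like against Astrocyte-like cells 1 was higher, 9 were lower and 19 did not pass, where 14.3% of all genes were higher and 18.3% lower, with a median log2 fold change of -0.34 against -0.02 for all genes. Slc39a12, a zinc importer, was lower (-3.40 ± 0.14, edgeR adjusted p = 7.46e-19), with 42.1 and 50.6 CPM in RGL-like and 344 and 418 CPM in Astrocyte-like cells. Slc30a10, a manganese exporter (-1.88 ± 0.18), Slc39a14, a manganese, iron and zinc importer (-2.31 ± 0.28), and Slc30a6, a Golgi zinc transporter (-1.33 ± 0.26), were lower as well. With total-count scaling 3 members were higher and 4 lower.

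The zinc exporter Slc30a1, like Mt1 a known MTF1 target, was lower in Astrocyte-like cells, at 28.3 and 40.7 CPM, than in Endothelial-like cells, at 393 and 319 CPM (-3.12 ± 0.18, edgeR adjusted p = 1.09e-16). It was higher in Astrocyte-like than in Oligodendrocyte-like cells (0.65 ± 0.22, adjusted p = 0.0123) and Microglia-like cells (0.75 ± 0.20, adjusted p = 0.00119), and lower in RGL-like than in Astrocyte-like cells (-0.66 ± 0.23, adjusted p = 0.0265), as Mt1 was. Mtf1 itself stood at 10.8 and 12.9 CPM in Astrocyte-like cells, against 93.5 and 83.3 CPM in Oligodendrocyte-like cells (-2.92 ± 0.16, adjusted p = 2.24e-17). In RGL-like cells Mtf1 differed from Astrocyte-like cells by 0.12 ± 0.22 (adjusted p = 0.738). Across the list, 14 members were higher and 5 lower in Astrocyte-like than in Oligodendrocyte-like cells, where 32.2% of all genes were higher and 26.8% lower. Against Microglia-like cells 9 were higher and 10 lower (36.2% and 34.1% of all genes), and against Endothelial-like cells 13 and 9 (35.9% and 29.6%). In the average of nIPC-like and Neuroblast-like cells 5 were higher and 11 lower than in RGL-like cells (29.9% and 27.7% of all genes), and in Pericyte-like cells 2 were higher and 7 lower than in Endothelial-like cells (10.5% and 11.5%).

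Other lists moved in mixed ways between RGL-like and Astrocyte-like cells, where 14.3% of all genes were higher and 18.3% lower. Of 19 redox defence genes 4 were higher and 6 lower, with Gclc, which makes the first step of glutathione synthesis, higher (1.65 ± 0.13) and the cystine carrier Slc7a11 lower (-2.50 ± 0.17). Of 12 glucocorticoid targets 0 were higher and 4 lower, among them Tsc22d3 (-2.17 ± 0.21) and Sult1a1 (-2.78 ± 0.21), and of 13 tested astrocyte reactivity genes 3 were higher and 4 lower, with Vim higher (2.24 ± 0.26). Of 20 early response and dissociation genes, which tissue dissociation can raise, 13 were higher and 2 lower in RGL-like cells. With doublets kept, and so with the classes drawn anew, this list had 2 higher and 13 lower. In Astrocyte-like cells all 20 were lower than in Microglia-like cells, as were 34.1% of all genes, and than in Endothelial-like cells, as were 29.6% of all genes. Their part in the metallothionein differences was not tested.

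Across the 17 classes the gene most like Mt1 was the urea transporter gene Slc14a1 (Pearson r = 0.94 of mean log2(CPM + 10)), followed by 2900052N01Rik, Slc15a2, Gm9925 and Pla2g7 (0.85). For Mt2 these were Mlc1 (0.94), Acsbg1, Slc25a18, Cbs and Gfap (0.92), and for Mt3 Gm42067 (0.92), Nim1k, Acsl6, Prxl2a and Gabrb1 (0.87), out of 8731 genes. Mt1 and Mt2 correlated at 0.84, Mt1 and Mt3 at 0.59, and Mt2 and Mt3 at 0.55. The classes share libraries and free RNA, and these coefficients are descriptions.

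Within the 1846 Astrocyte-like cells the 3 genes varied together. Mt1 correlated with Mt2 at 0.68 and 0.76 and with Mt3 at 0.65 and 0.73 in libraries 1 and 2, as the first and second of 2182 genes. Mt2 correlated with Mt3 at 0.47 and 0.55. Ckb and Dbi, which encode a brain creatine kinase and an acyl-CoA binding protein, were among the 5 leading genes of each member. Cells share their depth and library, so these are descriptions as well.

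Depth and the mitochondrial share of a cell's UMIs are common signs of RNA quality, and they went in opposite directions among Astrocyte-like cells (Spearman rho = -0.44 and -0.38 over cells). Cells were therefore split at the median depth of each library, and then at the median mitochondrial share within each depth group. The 8 resulting groups were summed and tested with both measures and library in 1 edgeR fit of 9858 genes. Mitochondrial genes were left out of the totals here. Groups of 1 library are cells of the same animals. The 8 groups come from only 2 libraries, so the p-values rest on how groups of cells varied within them. They do not measure a spread between libraries or mice.

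With depth in the model, no difference with the mitochondrial share passed the test, for which 0.416% of all genes were called, 0.304% higher and 0.112% lower. Cells with the higher share differed from those with the lower share by 0.12 ± 0.10 for Mt1 (edgeR adjusted p = 0.735), 0.14 ± 0.11 for Mt2 (adjusted p = 0.713) and 0.11 ± 0.10 for Mt3 (adjusted p = 0.768). In 4 equal bins from the lowest to the highest mitochondrial share, Mt1 was 14270, 14900, 14530 and 16980 CPM in library 1 and 15050, 14510, 16130 and 16670 CPM in library 2. The highest bin was above the lowest in both libraries, and its cells were shallower, at medians of 1927 and 2637 UMIs, against 6588 and 6272 UMIs in the lowest bin. Set against the lowest bin alone, without depth in the model, the highest bin was higher by 0.29 for Mt1 (adjusted p = 0.00169), 0.26 for Mt2 (adjusted p = 0.0151) and 0.35 for Mt3 (adjusted p = 9.74e-05).

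Deeper cells had lower levels than shallower cells. The log2 fold changes were -0.47 ± 0.10 for Mt1 (edgeR adjusted p = 0.00568), -0.42 ± 0.11 for Mt2 (adjusted p = 0.0136) and -0.52 ± 0.10 for Mt3 (adjusted p = 0.00347), with 7.67% of all genes called and 4.67% lower. From the shallowest to the deepest of 4 equal bins, Mt1 was 24200, 19150, 12460 and 13840 CPM in library 1 and 26270, 13500, 13070 and 15740 CPM in library 2. The shallowest bin, with median depths of 1443 and 1683 UMIs, was the highest in both libraries, and Mt3 at 12280 and 13970 CPM and Mt2 at 4635 and 5398 CPM were also highest there.

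The depth difference varied with the library and the cells kept. In library 1 alone it was -0.70 for Mt1, -0.61 for Mt2 and -0.67 for Mt3, and in library 2 alone -0.25, -0.25 and -0.38. With cells above a mitochondrial share of 10% left out, none passed the test: -0.11 for Mt1 (adjusted p = 0.705), -0.05 for Mt2 (adjusted p = 0.906) and -0.23 for Mt3 (adjusted p = 0.315). With depth and library alone in the model none passed either (adjusted p = 0.543, 0.512 and 0.441).

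Astrocyte-like cells formed a deeper cluster led by Aqp4 and a shallow one led by Mt2, Mt1 and Aldoc. The shallow cluster, of 334 and 228 cells at medians of 1807 and 1799 UMIs, had 24890 and 30630 CPM of Mt1, against 13210 and 14010 CPM in the deeper one. Its summed astrocyte markers were 19050 and 18760 CPM, against 26020 and 26620 CPM in the deeper cluster, and all 10 were detected in it. Its summed erythroid markers were 53760 and 3383 CPM, against 2785 and 2015 CPM, and its summed microglial markers 1327 and 426 CPM, against 426 and 230 CPM. Summed oligodendrocyte markers were 631 and 843 CPM, against 335 and 349 CPM, and summed RGL markers 1255 and 2366 CPM, against 861 and 1302 CPM. From the shallowest to the deepest of the 4 depth bins the oligodendrocyte sum was 693, 503, 398 and 289 CPM in library 1 and 884, 387, 401 and 305 CPM in library 2. Their part in the metallothionein levels was not tested. With mitochondrial genes in the totals, Mt1 was 21980 and 26380 CPM in the shallow cluster and 12020 and 12550 CPM in the deeper one. Free RNA, with 2241 and 1921 CPM of Mt1 on such totals, lay below both clusters.

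Other genes shared the depth pattern. Of 18 redox defence genes tested, 0 were higher and 3 lower in deeper Astrocyte-like cells (3% and 4.67% of all genes): the peroxidase Prdx1 (-0.52 ± 0.12, edgeR adjusted p = 0.00776), the thioredoxin Txn1 (-0.49 ± 0.13, adjusted p = 0.0153) and Gpx4, which reduces lipid peroxides (-0.38 ± 0.11, adjusted p = 0.0326). Of 25 zinc and copper genes 0 were higher and 2 lower, the copper chaperones Cox17 (-0.57 ± 0.12) and Atox1 (-0.54 ± 0.13). Slc30a1 differed by 0.67 ± 0.22 (adjusted p = 0.0547) and Mtf1 by 0.28 ± 0.35 (adjusted p = 0.69). The glucocorticoid target list had 1 higher member, Zbtb16 (0.69 ± 0.22, adjusted p = 0.04997), of 12, and the lists of early response and astrocyte reactivity genes had 0 called of 17 and 8. With the mitochondrial share, the only call in the 5 lists was Vim, higher by 0.66 ± 0.16 (adjusted p = 0.0387).

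**Figure D4:**
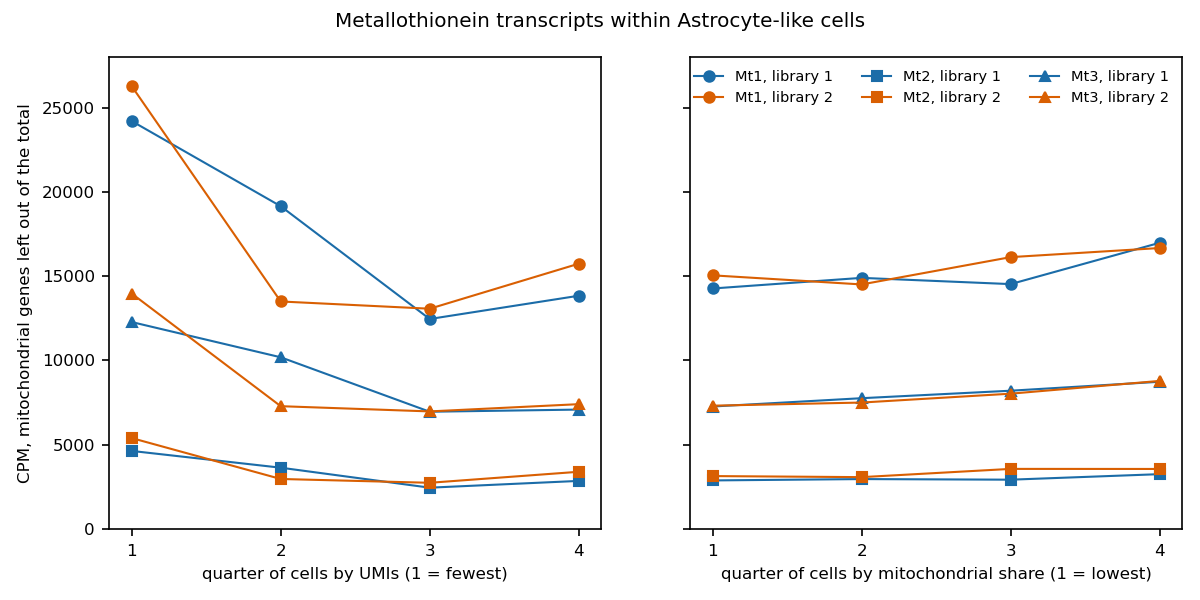
Mt1, Mt2 and Mt3 (CPM, mitochondrial genes left out of the total) in Astrocyte-like cells split per library into 4 equal bins by depth, left, and by mitochondrial share, right. Mt1 is highest in the shallowest bin, at 24200 CPM in library 1 and 26270 CPM in library 2, and lies between 14270 and 16980 CPM over the mitochondrial bins.

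In RGL-like cells, deeper over shallower cells stood at -0.36 and -0.16 for Mt1 and -0.33 and -0.15 for Mt3 (log2 of the CPM ratio per library, no test). Mt1 was also lower in deeper cells of other classes. The ratio was -1.65 and -1.06 in Choroid plexus-like and -0.79 and -1.17 in Erythroid-like cells. Endothelial-like cells had -0.45 and -1.06, Neuroblast-like cells -0.70 and -0.98. Deeper cells had more Mt1 in the nIPC-like (0.44 and 0.70), Border macrophage-like (0.42 and 0.33), COP-like and Cajal-Retzius-like classes. The sign differed between libraries in Cycling-like, Granule neuron-like and Smooth muscle-like cells. Mitochondrial genes were left out of the totals of these ratios and those below. With mitochondrial genes in the totals, the shallow RGL-like cluster had 10310 and 13010 CPM of Mt1, against 5658 and 7081 CPM in the deeper one. The mitochondrial share was again split within depth groups. Higher over lower share stood at 0.97 and 0.98 for Mt1 in Cycling-like cells, and at 0.55 and 0.96 in nIPC-like cells. This was not particular to progenitors. Erythroid-like cells had 0.99 and 1.79, Cajal-Retzius-like cells 0.82 and 1.14, Pericyte-like cells 0.65 and 0.83, and Neuroblast-like cells 0.68 and 0.43. In Cycling-like and Cajal-Retzius-like cells of library 2 the Mt1 level was within the free-RNA limit. The ratio was -0.05 and 0.07 in RGL-like cells, 0.05 and -0.03 in Microglia-like cells, -0.43 and -0.15 in Border macrophage-like cells and -0.42 and -0.26 in Smooth muscle-like cells. It was -0.70 and -0.14 in Choroid plexus-like cells and -0.06 and -0.44 in Fibroblast-like cells. Whether these ratios differ between classes was not tested.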

How the data were processed

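The authors deposited unnormalized UMI counts as 1 unfiltered matrix of both libraries. The submitters' processing notes name Cell Ranger 4.0.0, the build mm10 and Scanpy 1.7.0. Barcodes with at least 1000 UMIs, 500 genes and at most 20% mitochondrial UMIs were kept, and doublets marked by Scrublet (2.74% and 3.01%) were removed. Cells were clustered with scanpy 1.11.5 on 3000 variable genes without the metallothioneins, the tested lists and mitochondrial genes, and named from markers. Cells left unnamed made up 2.57% and 2.53%. CPM was computed from summed counts, and intervals cover counting error only, since UMIs of 1 library are not replicates. Class contrasts used edgeR 4.0.16 in R 4.3.3 with filterByExpr, TMM and library as a block (biological coefficient of variation 0.122 between classes and 0.104 within astrocytes, 16 and 4 residual degrees of freedom). The edgeR step was run on simulated data in which all classes had the Astrocyte-like profile, apart from a set of genes changed in RGL-like cells. Their spread was set smaller than in these data, so the run checks the code and not the error rates here. Alternatives were DESeq2 1.42.0, other scalings, filters, cell limits and free-RNA subtraction. A further alternative kept doublets and clustered and named all cells anew, so the cells of each class could change as well.

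The members, lists and markers were chosen with earlier results of these data known. Of each list, up to 4 called members with the smallest adjusted p were named, plus Mtf1 and Slc30a1; Slc30a3 was named after its values were seen. Likeness was ranked over genes reaching 50 CPM in a class or found in 25% of Astrocyte-like cells.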

Additional observations from a re-analysis of the deposited data

Results flagged for a closer look

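Metallothionein UMIs were also found in clusters that stayed unnamed and entered no comparison. They are above the level that a count of 0 allows, but no free-RNA limit was set for these clusters, and free RNA itself had 2241 and 1921 CPM of Mt1, 375 and 321 CPM of Mt2, and 1306 and 1217 CPM of Mt3. A shallow cluster led by Cst7, Cd52 and Lgals3, of 155 and 106 cells, had 1078 and 1060 CPM of Mt1, 73.3 and 92.2 CPM of Mt2, and 275 and 254 CPM of Mt3. A cluster led by H2-Eb1 and H2-Aa, of 32 and 34 cells, had 434 and 426 CPM of Mt1, 47.8 and 54.7 CPM of Mt2, and 71.7 and 58.6 CPM of Mt3. A cluster led by Hbb-bt, of 49 cells in library 2, had 1043 CPM of Mt1, 185 CPM of Mt2 and 631 CPM of Mt3.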

How the results depend on the processing

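Of the fold changes recomputed under the alternatives, 232 were counted as kept, 17 lost a call, 5 gained one and 4 changed sign. Kept means the same direction and side of the threshold. The counts include fold changes of 1 library alone, which had no test and could not lose or gain a call. These were counted as kept by direction and closeness to the main value, a rule that is easily met. No call changed under DESeq2. Without the replicate block, the library term, Mt2 lost its call in Pericyte-like over Endothelial-like cells (-0.84, adjusted p = 0.148) and by depth in Astrocyte-like cells (-0.41, adjusted p = 0.0504).

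In RGL-like over Astrocyte-like cells, Mt3 lost its call with total-count scaling (-0.55) and with doublets kept (-0.60). Subtracting free RNA by the mean astrocyte markers ended the calls of Mt1 (-1.40), Mt2 (-1.37, adjusted p = 0.428) and Mt3 (-0.91), and by the lowest marker, an alternative chosen after seeing the data, those of Mt1 (-1.39) and Mt3 (-0.90). In Pericyte-like over Endothelial-like cells both subtractions ended the Mt2 call (-9.24, where Mt2 is subtracted to 0 in some sums and the size is no bound, and -1.46) and turned Mt3 to 0.00025 and 0.045, and with doublets kept Mt3 was called (-0.79, adjusted p = 0.0388). The first subtraction called 2648 genes in RGL-like over Astrocyte-like cells, against 5136, and 1989 in Pericyte-like over Endothelial-like cells, against 3463. The cause was not tested.

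Within Astrocyte-like cells a mitochondrial limit of 10% turned the mitochondrial-share differences of Mt1 and Mt2 to -0.049 and -0.084 and ended the depth calls (-0.11, -0.051 and -0.23). With 1 measure alone, Mt3 was called by mitochondrial share (0.21, adjusted p = 0.0225), and the depth differences of -0.46, -0.41 and -0.52 were not. Extreme bins gave calls by mitochondrial share (0.29, 0.26 and 0.35). All genes called by mitochondrial share numbered 41, and 65 with DESeq2, 100 with no filter, 8 without the block, 72 with mitochondrial genes in the totals, 19 at the 10% limit, 433 with the measure alone and 727 between extreme bins. By depth they numbered 756, and 267 without the block, 109 at the 10% limit, 22 with the measure alone and 2028 between extreme bins.

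Mean levels in Astrocyte-like cells moved with a UMI minimum of 2000 (Mt1 13160, Mt3 6765 CPM), with doublets kept (12080, 2495 and 6207 CPM for Mt1, Mt2 and Mt3) and with mitochondrial genes out of the totals (15140, 3131 and 7799 CPM). There is 1 library per genotype, unmapped to it, so no spread between mice is measured, and levels near the free-RNA limit of a class cannot be told from free RNA.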
